A study of Mus musculus with 33 samples.

Results

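The 10 genes described here are induced by type I interferon (Irf7, Isg15, Ifit1, Ifit3, Rsad2, Usp18, Oasl2, Ifi44, Ifi27l2a and Rtp4) and were followed by RNA sequencing through Myc-CaP tumours under 4 treatments, with the interferon gamma genes Gbp2 and Cxcl9 as the contrast. They were picked by symbol from the 48795 genes of the table, with results on these same tumours already known, and no single comparison is on record as the one that chose them. Their levels and differences between the treatments are therefore given as a description, with no p-value. Where a number of members past the threshold is stated, it stands beside the share of all genes and nothing is read from it. All 10 passed the filter on low values, which asked for at least 0.5 FPKM (fragments per kilobase of exon and per 1e+06 fragments) in at least 5 tumours, and Ifi44 passed with exactly 5.

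Myc-CaP cells come from a prostate tumour of a MYC transgenic mouse, and the line was implanted under the skin of both flanks of male FVB mice. From a tumour volume of 50 mm3, the mice received ESK981 by mouth at 15 mg/kg or its vehicle, 5 days a week, and 200 µg of anti-PD-1 or an isotype control antibody 3 times a week into the peritoneum, for 3 weeks. ESK981 is a kinase inhibitor with several targets, among them the endosomal lipid kinase PIKfyve, and PD-1 is an inhibitory receptor of T cells. There were 10 tumours in the vehicle group, 8 under ESK981, 7 under anti-PD-1 and 8 under both agents, named the combination here. Each had 5 mice, all carried the same tumour line in the same strain, and which groups received the isotype antibody is not written sample by sample. The mouse is the replicate: 13 mice gave 2 tumours and 7 gave 1, and a tumour is named by group, mouse number and flank (L or R).

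Type I interferons act through the receptor chains Ifnar1 and Ifnar2 and the kinases Jak1 and Tyk2, which assemble a complex with Stat2 and Irf9 that binds the interferon stimulated response element (ISRE). Interferon gamma, made chiefly by T cells and natural killer cells, acts through another receptor and through the gamma activated site (GAS). The responses overlap: many genes respond to both, and in tumours type I interferon is known above all from nucleic acid sensing in tumour and myeloid cells.

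The promoters were searched for the core letters of these elements. RefSeq promoters (GRCm38.p6, from 250 bases before to 50 after the gene start) were at hand for 7 of the 10, without Usp18, Ifi27l2a and Rtp4. The ISRE core (GAAA, any 2 bases, GAAA), searched on both strands with overlapping matches kept, was found in 4 of the 7 promoters (57.1%) and in 3.44% of all 32851. The GAS core (TTC, any 3 bases, GAA) was found in 0 of the 7 and in 8.3% of all. The 4 members with a match are shown because they carry the element by which the family is known, and Gbp2 is shown because a gene of the contrast holds it too. Each stretch is written on the strand of its gene with 20 bases on either side of the matches, which are in capitals. A capital run of TTTC repeats is the core read from the other strand.
Isg15, chr4:156200855-156200916, minus strand: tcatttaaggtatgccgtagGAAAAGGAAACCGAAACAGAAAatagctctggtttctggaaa
Ifit1, chr19:34640765-34640833, plus strand: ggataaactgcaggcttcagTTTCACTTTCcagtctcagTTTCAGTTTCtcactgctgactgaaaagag
Ifit3, chr19:34583353-34583436, plus strand: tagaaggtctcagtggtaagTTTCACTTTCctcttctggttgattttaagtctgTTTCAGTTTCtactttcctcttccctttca
Rsad2, chr12:26456543-26456592, minus strand: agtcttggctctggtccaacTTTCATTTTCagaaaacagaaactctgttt
Gbp2, chr3:142620584-142620633, plus strand: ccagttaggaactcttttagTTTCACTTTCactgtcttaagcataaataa
Isg15 held 3 overlapping cores starting 78, 72 and 66 bases before its gene start. Ifit1 held 2 (104 and 85 bases before) and Ifit3 held 2 (156 and 122 bases before), in both genes as TTTCACTTTC followed by TTTCAGTTTC. Rsad2 had 1 core 120 bases before its start and Gbp2 had 1 core 59 bases before. Starts here are those of RefSeq, and the RefSeq start of Gbp2 lies 61 bases inside the GENCODE gene whose position is given below, so its core lies within that gene. The letters of neither core were in the windows of Irf7, Oasl2, Ifi44 and Cxcl9. The RefSeq starts of Irf7 and Ifi44 also lie inside their GENCODE genes, by 57 and 50 bases. A miss of these exact letters in a short window does not show that an element is absent. Among 22 further interferon gamma genes, 16 had a promoter in the table; 9 of those held the ISRE core and 7 the GAS core, so the ISRE core was not particular to the type I genes.

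The tumours differed in depth and RNA composition. Depth ran from 9.90e+06 fragments (vehicle 5R) to 3.24e+07 (ESK981 1R). Genes lying on ribosomal RNA sequence took 8.87% to 35.3% of the fragments in vehicle tumours, 2.31% to 14.7% under ESK981, 2.88% to 16.7% under the combination and 5.82% to 24% under anti-PD-1. Vehicle 5R and anti-PD-1 4R had the most mitochondrially encoded RNA (90856 and 52728 summed FPKM over 13 genes), and combination 5R led its group for ribosomal RNA. These 3 tumours had the lowest median-of-ratios size factors of the 33 (0.597, 0.691 and 0.649). A separate flow cell carried 9 vehicle tumours, and the 23 treated ones were run with only vehicle 5R beside them, so flow cell and vehicle cannot be told apart. The epithelial markers of the tumour line were in part absent: Krt8 was at 3.73 to 117 FPKM, whereas Epcam was listed at 0 in 17 of the 33 tumours.

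Across the 4 groups, the type I genes and the interferon gamma pair had different profiles. The mean of the 10 members on the log2(FPKM + 0.5) scale was 1.16 ± 0.21 in vehicle, 1.01 ± 0.27 under ESK981, 0.90 ± 0.21 under the combination and 1.32 ± 0.28 under anti-PD-1 (SD, n = 5 mice each). The mean of Gbp2 and Cxcl9 on that scale was 4.49 ± 0.73, 2.78 ± 0.62, 4.15 ± 0.89 and 4.38 ± 0.41 in the same order. The mean of the gamma pair was thus lowest under ESK981, and ESK981 mice (1.85 to 3.46) lay below all anti-PD-1 mice (3.94 to 5.03). Vehicle mouse 5 (3.20) and combination mice 1 and 5 (3.42 and 3.17) overlapped the ESK981 mice. The members' means were farthest apart between the combination and anti-PD-1, and the mice of those groups overlapped (0.56 to 1.10 and 1.003 to 1.76). All values are of bulk tumour RNA, in which fewer cells of a type and less RNA per cell cannot be told apart.

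**Figure D1:**
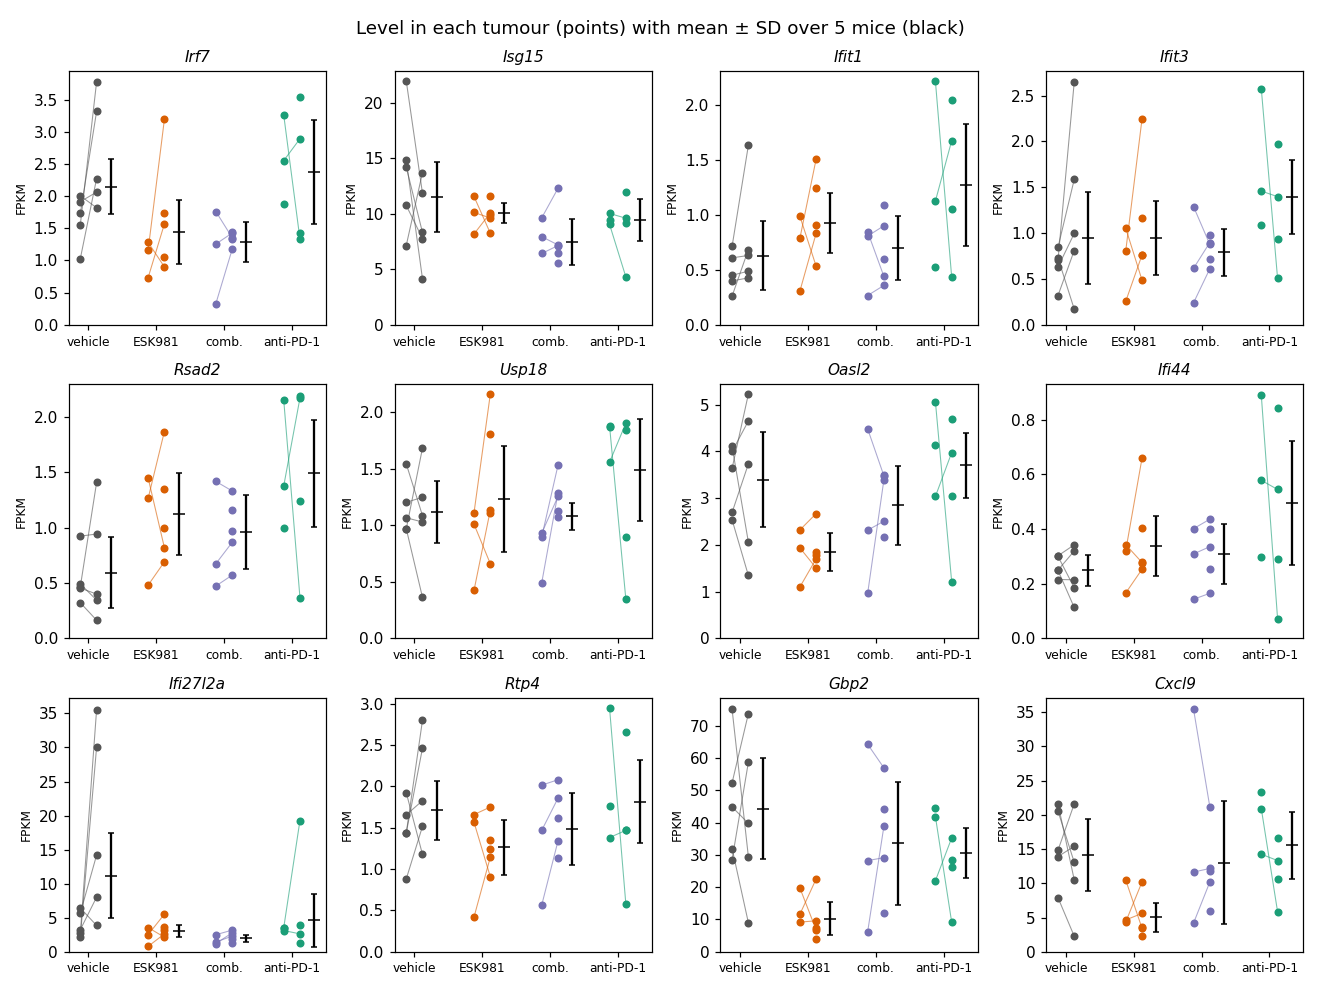
Level in FPKM (vertical axis, linear, own scale per gene) of the 10 members, Gbp2 and Cxcl9 in each of the 33 tumours by treatment, left flank to the left, with a line joining the tumours of a mouse and the mean ± SD over 5 mice in black. Gbp2 in ESK981 tumours sits between 4.01 and 22.5 FPKM, and the highest Ifi27l2a value is 35.6 FPKM in vehicle 5R.

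Irf7, the transcription factor that amplifies interferon production (chromosome 7, 141262706 to 141266481, minus strand), had 1.03, 1.96 and 3.78 FPKM as lowest, median and highest vehicle tumour, and 0.732, 1.22 and 3.19 under ESK981. The combination gave 0.331, 1.34 and 1.76, and anti-PD-1 gave 1.33, 2.55 and 3.55. Means over 5 mice were in the order anti-PD-1 (2.37 ± 0.81), vehicle (2.15 ± 0.43), ESK981 (1.44 ± 0.49) and combination (1.29 ± 0.31). Every combination mouse lay below every vehicle mouse (at most 1.56 against at least 1.65 FPKM), as in 1.42% of all genes tested. The neighbouring pairs anti-PD-1 and vehicle, and ESK981 and combination, overlapped. The log2 fold change against vehicle was −0.46 ± 0.20 (SE) with ESK981 and −0.55 ± 0.20 with the combination.

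Isg15, a ubiquitin-like protein that is attached to other proteins (chromosome 4, 156199424 to 156200818, minus strand), was the most abundant member per length in every group. Its lowest, median and highest tumours were at 4.14, 11.3 and 22.0 FPKM in vehicle, 8.18, 9.96 and 11.6 under ESK981, 5.56, 7.17 and 12.3 under the combination and 4.32, 9.46 and 11.9 under anti-PD-1. The combination was lowest (7.47 ± 2.08 FPKM over 5 mice, with 11.5 ± 3.15 in vehicle), and its mice overlapped those of every other group. The 2 lowest tumours, vehicle 5R and anti-PD-1 4R, were those richest in mitochondrial RNA.

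Usp18, the protease that removes Isg15 and dampens signalling at Ifnar2 (chromosome 6, 121245906 to 121270917, plus strand), differed little. Its means were 1.11 ± 0.27 FPKM in vehicle, 1.23 ± 0.47 under ESK981, 1.08 ± 0.12 under the combination and 1.49 ± 0.45 under anti-PD-1, with overlapping mice throughout. Its fold changes on the log2 scale ran from −0.28 to 0.27 over the 6 pairwise comparisons.

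Ifit1 and Ifit3 encode proteins of the Ifit family, and their genes lie close together on chromosome 19 (34640871 to 34650009 and 34583531 to 34588731, both plus strand). Ifit1 averaged 0.63 ± 0.31 FPKM in vehicle, 0.93 ± 0.28 under ESK981, 0.70 ± 0.29 under the combination and 1.27 ± 0.55 under anti-PD-1. Ifit3 averaged 0.94 ± 0.50, 0.95 ± 0.40, 0.79 ± 0.25 and 1.39 ± 0.41 FPKM. Both were highest under anti-PD-1, and the mice of all groups overlapped. The levels rest on few fragments, from 10 to 135 per tumour for Ifit1 and from 5 to 127 for Ifit3.

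Rsad2, which encodes the antiviral enzyme viperin, was the one member lowest in vehicle with a gap to another group. Its lowest, median and highest tumours were at 0.163, 0.46 and 1.41 FPKM in vehicle, 0.479, 1.13 and 1.87 under ESK981, 0.472, 0.918 and 1.42 under the combination and 0.367, 1.37 and 2.19 under anti-PD-1. Averaged by mouse, anti-PD-1 (0.993 to 2.19 FPKM) lay above vehicle (0.242 to 0.937), and the ESK981 and combination mice overlapped both. All anti-PD-1 mice lay above all vehicle mice in 2.81% of all genes tested. The log2 difference from vehicle was 0.86 ± 0.22 with anti-PD-1, 0.60 ± 0.22 with ESK981 and 0.46 ± 0.22 with the combination. The number of fragments behind these values was not recovered.

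Oasl2, an oligoadenylate synthetase-like protein (chromosome 5, 114896936 to 114912234, plus strand), was the member whose profile came nearest that of the gamma pair. It had 1.35, 3.69 and 5.23 FPKM as lowest, median and highest tumour in vehicle, 1.10, 1.82 and 2.67 under ESK981, 0.961, 2.95 and 4.48 under the combination and 1.21, 3.98 and 5.06 under anti-PD-1. ESK981 mice (1.40 to 2.49 FPKM) lay below all anti-PD-1 mice (3.05 to 4.70), as in 5.35% of all genes tested. They overlapped the vehicle and combination mice. The log2 fold change was −0.68 ± 0.21 against vehicle and −0.80 ± 0.21 against anti-PD-1.

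Ifi44 (chromosome 3, 151730922 to 151749960, minus strand), an interferon-induced cytoplasmic protein, was the lowest member per length. Its means were 0.249 ± 0.056 FPKM in vehicle, 0.338 ± 0.110 under ESK981, 0.308 ± 0.110 under the combination and 0.495 ± 0.228 under anti-PD-1, with overlapping mice. Of the 5 tumours at or above 0.5 FPKM, 4 were from anti-PD-1 mice and the other was ESK981 1R. Rtp4, a chaperone of receptors on their way to the cell surface (chromosome 16, 23520291 to 23614222, plus strand), averaged 1.71 ± 0.36, 1.26 ± 0.33, 1.48 ± 0.44 and 1.82 ± 0.50 FPKM in vehicle, ESK981, combination and anti-PD-1, again with overlapping mice.

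Ifi27l2a, a small membrane protein of the Ifi27 family (chromosome 12, 103442167 to 103443680, minus strand), differed most between the groups. Its lowest, median and highest tumours were at 2.24, 6.05 and 35.6 FPKM in vehicle, 0.791, 2.95 and 5.53 under ESK981, 1.21, 2.10 and 3.18 under the combination and 1.35, 3.48 and 19.3 under anti-PD-1. All vehicle mice (5.15 to 19.1 FPKM) lay above all ESK981 mice (at most 4.02) and all combination mice (at most 2.85), and anti-PD-1 mice reached from 1.35 to 11.4. Of all genes tested, 4.05% had all ESK981 mice below all vehicle mice, and 1.42% had all combination mice below them. The log2 fold change from vehicle was −1.21 ± 0.31 with ESK981, −1.70 ± 0.31 with the combination and −0.98 ± 0.31 with anti-PD-1.

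The high Ifi27l2a values came from a few tumours. Vehicle 5R (35.6 FPKM), vehicle 3R (30.1), anti-PD-1 4R (19.3) and vehicle 2R (14.2) led, all from the right flank, and they ranked 1, 3, 2 and 5 for mitochondrially encoded RNA among the 33. The left tumour of the same mouse was at 2.70 FPKM for vehicle 5L, 2.24 for vehicle 3L, 3.48 for anti-PD-1 4L and 5.68 for vehicle 2L. These left tumours ranked 6, 4, 22 and 8 for mitochondrial RNA, so vehicle 5L and 3L had low Ifi27l2a beside high mitochondrial RNA. The transcript gave only 9 to 163 fragments per tumour. The part of mitochondrial RNA content in the vehicle levels was not tested. Leaving out the 3 tumours with the lowest size factors, the ESK981 and combination differences from vehicle were −0.86 and −1.35. With the flow cell term the differences from vehicle were −3.47 with ESK981, −3.86 with the combination and −3.05 with anti-PD-1.

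**Figure D2:**
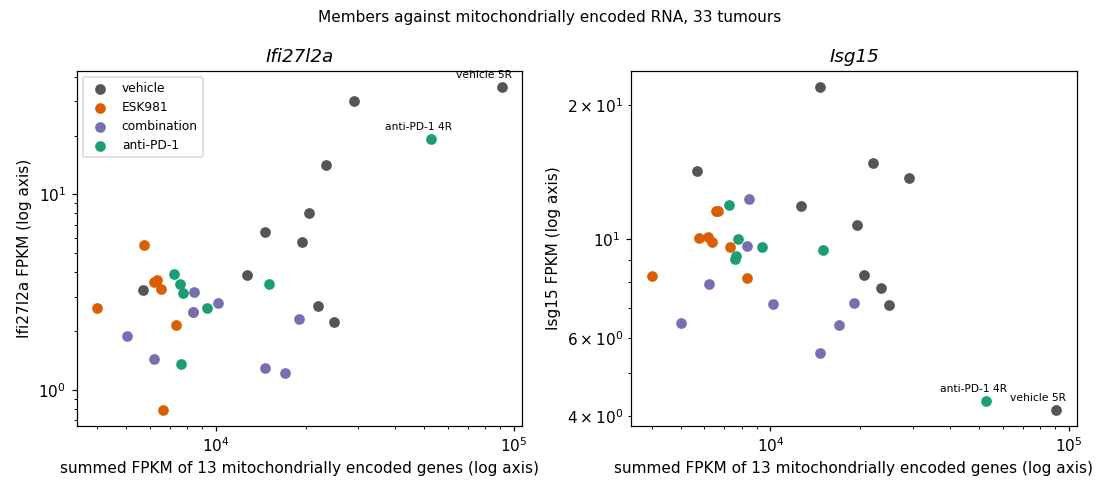
Ifi27l2a (left) and Isg15 (right) in FPKM against the summed FPKM of 13 mitochondrially encoded genes, one point per tumour, coloured by treatment, both axes logarithmic. Vehicle 5R and anti-PD-1 4R, with 90856 and 52728 FPKM of mitochondrial RNA, combine high Ifi27l2a (35.6 and 19.3) with the lowest Isg15 (4.14 and 4.32).

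The contrast genes behaved otherwise under ESK981. Gbp2, a guanylate-binding GTPase (chromosome 3, 142620602 to 142638008, plus strand), had 9.03, 42.3 and 75.0 FPKM as lowest, median and highest vehicle tumour, 4.01, 9.39 and 22.5 under ESK981, 6.18, 34.0 and 64.2 under the combination and 9.13, 28.4 and 44.4 under anti-PD-1. ESK981 mice (4.01 to 17.1) lay below every vehicle mouse (at least 20.5) and every anti-PD-1 mouse (at least 25.5), and the other 3 groups overlapped. The gap to vehicle was seen in 4.05% and that to anti-PD-1 in 5.35% of all genes tested. Gbp2 fell against vehicle from 44.3 ± 15.7 to 10.3 ± 5.07 FPKM (log2 fold change −2.06 ± 0.40, limma adjusted p = 0.00443).

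Cxcl9, a chemokine that attracts T cells through Cxcr3 (chromosome 5, 92321347 to 92328079, minus strand), had 2.28, 14.4 and 21.6 FPKM as lowest, median and highest vehicle tumour, 2.36, 4.51 and 10.5 under ESK981, 4.19, 11.7 and 35.4 under the combination and 5.86, 14.2 and 23.4 under anti-PD-1. It fell with ESK981 against vehicle from 14.2 ± 5.23 to 5.07 ± 2.12 FPKM (−1.37 ± 0.38, limma adjusted p = 0.0246). ESK981 mice lay below all anti-PD-1 mice (at most 7.28 against at least 10.6 FPKM), as in 5.35% of all genes tested. They overlapped the vehicle mice through vehicle 5 (5.10). Both contrast genes were named with these results known, so these tests are no independent support. Fitted with a term for flow cell, whose link is vehicle 5R alone, the ESK981 differences were 0.14 for Gbp2 and 0.98 for Cxcl9, and without ESK981 1R and 2R the adjusted p of Cxcl9 was 0.114 (−0.98).

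**Figure D3:**
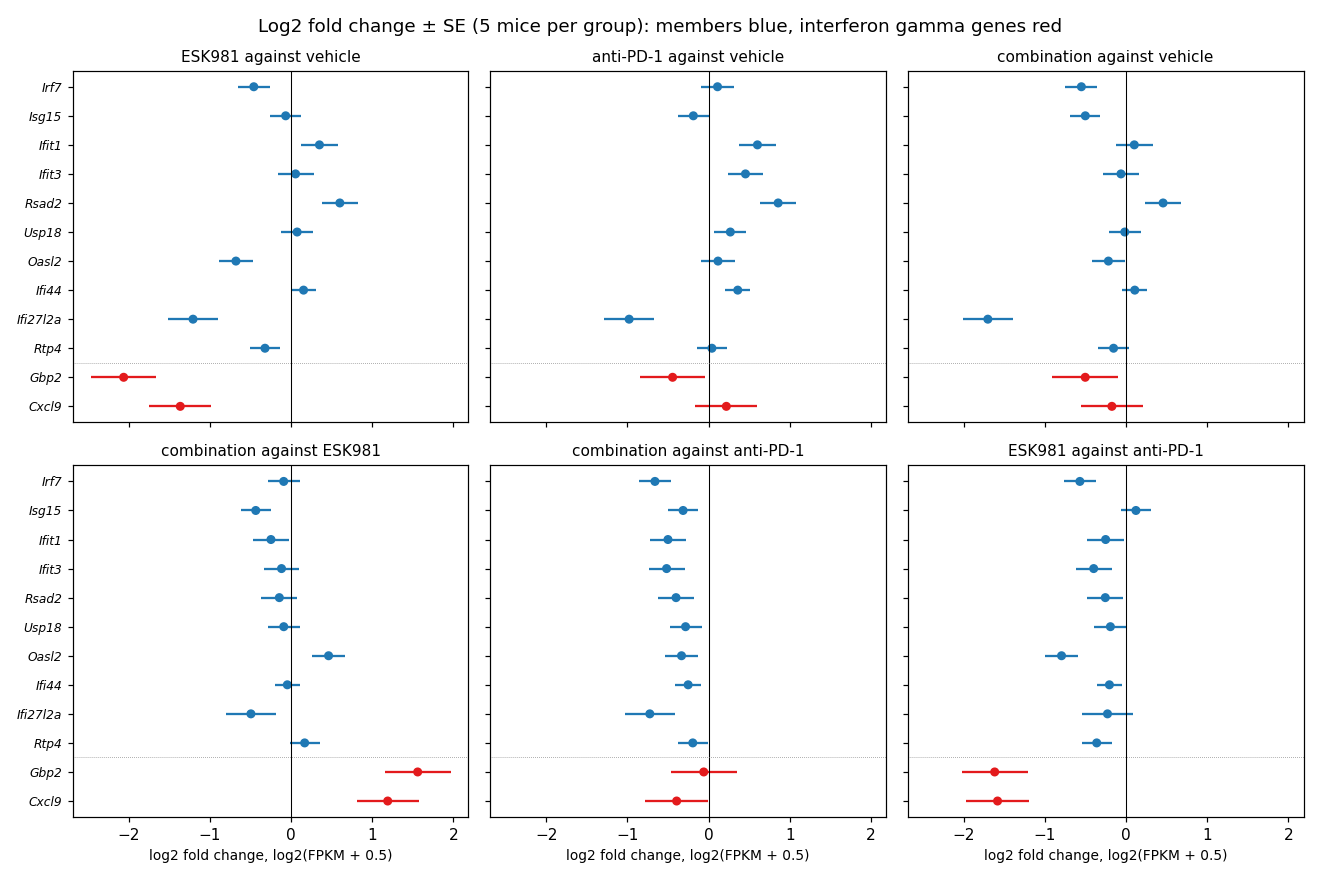
Log2 fold change ± SE on the log2(FPKM + 0.5) scale (horizontal axis) of the 10 members (blue) and Gbp2 and Cxcl9 (red) in the 6 pairwise comparisons of 5 mice per group. Under ESK981 against vehicle the red points are at −2.06 and −1.37 and the members range from −1.21 to 0.60; under combination against anti-PD-1 every blue point is below 0.

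Of the members, 2 passed a limma adjusted p under 0.05 for ESK981 against vehicle, Oasl2 and Ifi27l2a, both lower. None passed when single tumours were fitted with a within-mouse correlation, where 20.7% of all genes did. The flow cell term put Oasl2 at 0.33. With the mouse means, 14.4% of all 15846 genes tested passed in that comparison (1418 higher, 860 lower). The median log2 fold change of the 10 was −0.01 beside 0.11 for all genes. Scaling moved this: median-of-ratios scaling put the 2 medians at −0.12 and 0.00 and the calls at 2112 higher and 2277 lower, and rescaling without ribosomal and mitochondrial RNA put them at −0.25 and −0.12 with 464 higher and 2744 lower.

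With anti-PD-1 alone, 8 members were above vehicle, from 0.04 (Rtp4) to 0.86 (Rsad2). The other 2, Ifi27l2a (−0.98 ± 0.31) and Isg15 (−0.19 ± 0.19), were below it, as were 27.9% of all genes. Ifi44 (0.36) is among the 8 and passed the filter mostly through anti-PD-1 tumours, so nothing is read from its direction. The median log2 fold change of the 10 members was 0.19 beside 0.13 for all genes. None passed, where 0.783% of all genes did. Without the 3 tumours with the lowest size factors, 2 members passed, where 11.2% of all genes did. With the flow cell term 3 members passed, where 31.9% of all genes did. Against vehicle, the combination had 1 member pass, Ifi27l2a, where 0.606% of all genes passed. The members' median was −0.11 beside 0.03 for all genes. No member passed with the within-mouse correlation (1.05% of all genes did), and 3 passed after rescaling without ribosomal and mitochondrial RNA (9.02% did). Under the 2 scalings above, the anti-PD-1 median was 0.07 and 0.02 with 5 members above 0, beside 0.01 and −0.06 for all genes. The calls over all genes, 75 higher and 49 lower with anti-PD-1, became 126 and 242, then 39 and 142, and for the combination 13 higher and 83 lower became 529 and 537, then 69 and 1360. Gbp2 and Cxcl9 did not pass in either comparison (−0.44 ± 0.40 and 0.22 ± 0.38 with anti-PD-1, −0.50 ± 0.40 and −0.18 ± 0.38 with the combination).

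The treated groups were compared on 1 flow cell, although lanes there mostly followed the groups. Adding anti-PD-1 to ESK981 moved the type I genes little: the median difference was −0.10, as for all genes (−0.09), with Oasl2 highest at 0.46 ± 0.21 and Ifi27l2a lowest at −0.50 ± 0.31. Gbp2 was 1.56 ± 0.40 and Cxcl9 1.19 ± 0.38 higher on the log2 scale, and neither passed (limma adjusted p = 0.325 and 0.507). No gene passed here (0%, with 7.74% at an unadjusted p under 0.05). Without the 3 tumours with the lowest size factors, 41 genes passed, Gbp2 among them (limma adjusted p = 0.0482).

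Adding ESK981 to anti-PD-1 gave lower estimates for all 10 members, from −0.72 ± 0.31 (Ifi27l2a) and −0.66 ± 0.20 (Irf7) to −0.20 ± 0.19 (Rtp4). Their median was −0.37 beside −0.09 for all genes, of which 74.5% were below 0, and all 10 stayed below 0 under both other scalings (medians −0.26 and −0.38). Ifi44 (−0.25) passed the filter mostly through anti-PD-1 tumours, so nothing is read from its direction in comparisons with anti-PD-1. No member passed, nor did any other gene (0%, with 5.94% at an unadjusted p under 0.05 by limma). Gbp2 and Cxcl9 were at −0.06 ± 0.40 and −0.39 ± 0.38.

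For ESK981 against anti-PD-1, 9 of 10 members were below 0, as were 51.1% of all genes (median −0.25 beside −0.01). Isg15 was the other at 0.12 ± 0.19. Ifi44 is among the 9, and nothing is read from its direction here either. No member passed, where 0.00631% of all genes did (0 higher and 1 lower, or 55 and 113 with median-of-ratios scaling). Gbp2 was at −1.62 ± 0.40 (limma adjusted p = 0.087) and Cxcl9 at −1.58 ± 0.38 (0.0851). Both passed without the same 3 tumours (0.0134 and 0.0142). The interaction, which subtracts the ESK981 effect without the antibody from that with it, had a median of −0.30 over the members and −0.22 over all genes, and none of the members passed, where 0.0252% of genes did. It was lowest for Rsad2 (−1.002 ± 0.31) and Ifit1 (−0.85 ± 0.32), and stood at 2.004 ± 0.57 for Gbp2 (0.139) and 0.97 ± 0.54 for Cxcl9 (0.331).

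Further genes of both responses were read from lists outside the members. Of 40 further type I genes, 36 were tested, and against vehicle ESK981 had 6 fall and 1 rise (median −0.33), where 14.4% of all genes passed. Those that fell were led by the membrane restriction factor Ifitm3 (from 44.5 ± 13.4 to 19.3 ± 3.27 FPKM, log2 fold change −1.11, limma adjusted p = 0.00364), the nucleic acid sensor Zbp1 (−1.20, 0.0052), the tethering factor Bst2 (−1.12, 0.00611) and the secreted glycoprotein Lgals3bp (−1.06, 0.0133). The mitochondrial RNA-processing enzyme Pnpt1 rose (0.64, 0.0477). Scaling mattered for the count of calls, which was 19 with median-of-ratios scaling and 21 after rescaling without ribosomal and mitochondrial RNA. At those settings 27.7% and 20.2% of all genes passed. With a flow cell term the count was 7, where 39.9% of all genes passed. Of the calls over all genes with that term, 96.3% were higher.

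Of 22 further interferon gamma genes, 21 were tested, and 20 fell with ESK981 against vehicle (median −1.61), where 5.43% of all genes fell. The 4 with the smallest adjusted p were the nitric oxide synthase Nos2 (−2.88, limma adjusted p = 0.00151), the immunoproteasome subunits Psmb8 (−1.82, 0.00289) and Psmb9 (−2.06, 0.00369), and the transcription factor Irf1 (−1.54, 0.00449). With a flow cell term, 1 of them passed. For the combination against ESK981, all 21 were above 0 (median 1.10) and 0 passed with limma, while 21 had an unadjusted p under 0.05. Of all genes, 68.1% were below 0 in that comparison and 7.74% had such a p. The further type I genes had a median of 0.22 there, with 0 called and 5 at an unadjusted p under 0.05. For the combination against anti-PD-1, 35 of the 36 further type I genes were below 0 (median −0.22, 0 called by limma, 3 at an unadjusted p under 0.05). Of all genes, 74.5% were below 0 there (median −0.09) and 5.94% had such a p, and the median of the gamma genes was −0.06. These lists were drawn up with earlier results of these data known.

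Upstream of the members, the type I and III interferon genes were near absent. None passed the filter, 6 were at 0 in every tumour, and Ifnb1 was at 0 in 23 tumours and reached at most 0.154 FPKM. Interferon gamma itself, Ifng, fell with ESK981 against vehicle, from 0.969 ± 0.460 to 0.153 ± 0.143 FPKM (log2 fold change −1.03, limma adjusted p = 0.0291). The receptor chains Ifnar1 (0.09) and Ifnar2 (−0.28) did not pass, whereas Ifngr2, a chain of the gamma receptor, fell (−0.87, 0.0338).

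Among the transducers, the kinase Tyk2 fell (−0.55, limma adjusted p = 0.0416). Stat2 (−0.51) and Irf9 (−0.45), parts of the ISRE-binding complex, did not pass, nor did Jak1 (0.08) and Jak2 (0.04). Of 15 sensor genes with adaptors and factors, 3 fell and none rose, where 5.43% of all genes fell: Irf5 (−1.09, 0.0114), the RNA sensor Dhx58 (−0.66, 0.044) and the kinase Ikbke (−0.75, 0.0416). The RNA sensors Ddx58 (0.07) and Ifih1 (−0.25) and the DNA sensor Mb21d1 (−0.18) did not pass. In the comparisons of the treated groups no receptor, transducer or sensor gene passed.

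Cell type markers moved beside these results. The summed level of 8 macrophage markers lay at 94.0 to 255 FPKM in vehicle, 60.7 to 118 under ESK981, 47.9 to 215 under the combination and 124 to 236 under anti-PD-1. For 8 T cell markers the ranges were 1.03 to 15.7, 1.40 to 4.57, 1.36 to 14.5 and 1.96 to 11.6 FPKM. From vehicle to ESK981 the median sum went from 143 to 79.6 FPKM for macrophages, with 4 of 8 markers called lower, and from 8.08 to 2.18 for T cells, with 5 of 8 called lower. Of all genes, 5.43% were called lower and 14.4% in either direction. Other markers went up there: 2 of 5 endothelial markers tested and 1 of 3 prostate epithelium and tumour cell markers tested were called higher, and 0 lower. Markers of plasmacytoid dendritic cells, a main source of type I interferon, were low: the 9 summed to between 2.86 and 17.9 FPKM over all tumours, and their defining gene Siglech had a median of 0.137 FPKM. The part of these cells in the interferon genes was not tested.

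Within the groups, most members went up and down together from mouse to mouse. With group means removed, the 45 pairs of members had a median Pearson r of 0.55 over 20 mice (range −0.27 to 0.87), and 0.60 over the 15 treated mice. Without the 2 mice farthest from the median it was 0.46. The mice share a table, depth differences and cell content, so this is a description. Irf7 was nearest the other members (r = 0.88 with their mean), followed by Ifit3 (0.84), Rtp4 (0.81), Rsad2 (0.80), Ifi44 (0.80), Usp18 (0.76), Ifit1 (0.72) and Oasl2 (0.67).

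Isg15 and Ifi27l2a stood apart, at 0.11 and 0.20, and with mitochondrially encoded RNA they had r of −0.67 and 0.54. Gbp2 and Cxcl9 had an r of 0.92 with each other but only 0.14 and 0.33 with the members' profile. Oasl2 had as high an r with the gamma pair (0.69) as with its own family, and Rtp4 had 0.51. Ifit1 was at −0.21 with the gamma pair.

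**Figure D4:**
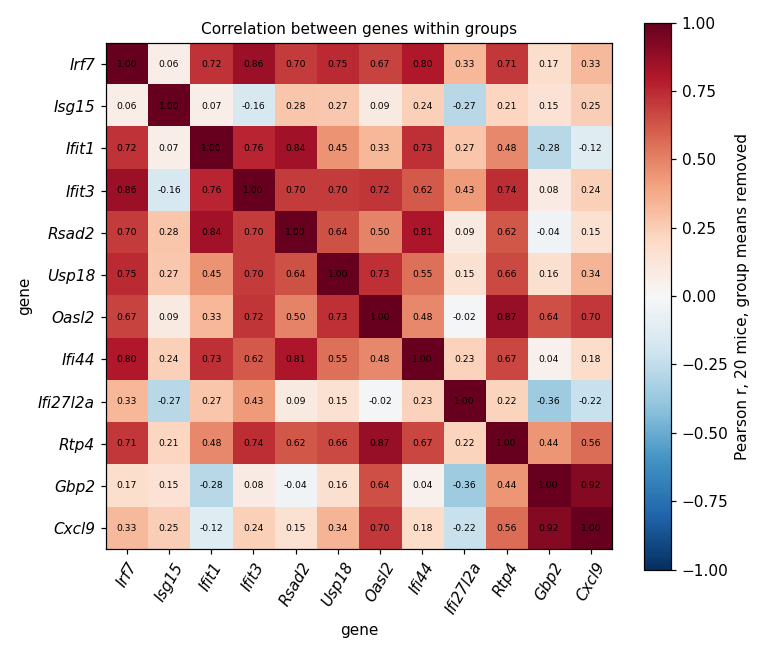
Pearson r between the 10 members, Gbp2 and Cxcl9 over 20 mice after removing group means, with genes on both axes, red for positive and blue for negative r. Gbp2 and Cxcl9 form a pair at 0.92, and Isg15 and Ifi27l2a are pale against the other members.

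**Figure D5:**
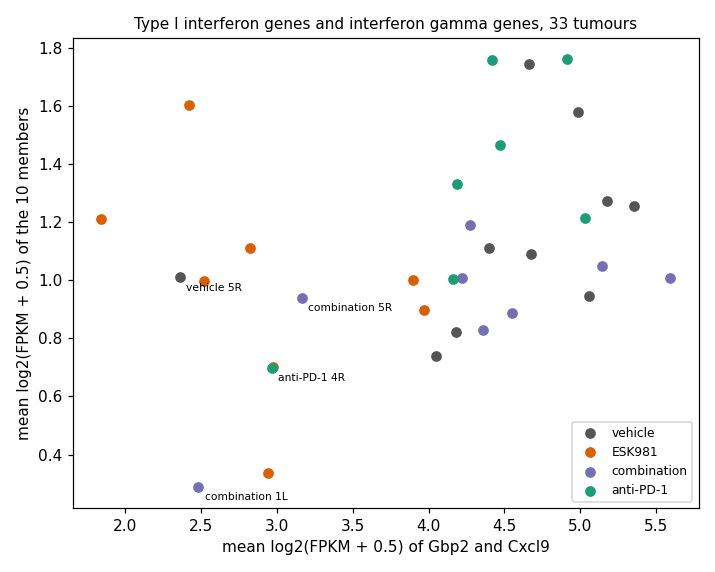
Mean log2(FPKM + 0.5) of the 10 members (vertical axis) against that of Gbp2 and Cxcl9 (horizontal axis), one point per tumour, coloured by treatment, with 4 tumours named. ESK981 tumours lie to the left at low Gbp2 and Cxcl9 and span most of the members' range.

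Likeness to the members' profile was ranked among other genes with a log2 mean of 1 or more and no predicted or clone name. Interferon genes below that level were therefore not ranked. Among the genes ranked, the one most like the profile over 20 mice was Oas1a (r = 0.84). It was followed by Lcn10 (0.79), Samd9l (0.76), Shisa5 (0.75), Cxcr4 (0.74), Ms4a6b (0.73), Ms4a7 (0.73) and Dgat2 (0.71). With group means removed, the order was Lcn10 (0.87), Oas1a (0.86), Samd9l (0.86) and Fxyd3 (0.81).

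The 2 tumours of a mouse shared treatment and host but not always the level. The mean of the 10 members differed between flanks by a median of 0.43 (log2) over 13 mice and by up to 1.06 in anti-PD-1 mouse 4, and the left tumour was higher in 3 of the 13. No gene of the table passed between left and right (0%, with 8.47% at an unadjusted p under 0.05 by limma). Of the members, 1 had an unadjusted p under 0.05. Ifi27l2a had the largest difference, −1.10 ± 0.33 for left minus right (limma adjusted p = 0.535), beside −0.08 for the median member and 0.10 for the median gene.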

How the data were processed

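RNA was sequenced after ribosomal RNA removal in 33 tumours of 20 mice. The authors deposited FPKM values for 48795 genes, made with STAR and featureCounts on mm10 per the submitters' processing notes. The sources used here do not give versions, annotation or strand use, so near-identical copies (the Ifit, Oas and Gbp families) and overlapping genes are uncertain. Gene identifiers matched GENCODE M21 with their version for 41427 genes, the source of the coordinates, which for Rsad2 belong to another version. All value columns matched a sample (0 unmatched). Low values times exon length gave whole fragments (100% within 0.02), hence the depths. Intervals of counting error were not computed, since FPKM depend on the total.

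Values log2(FPKM + 0.5) were averaged per mouse and fitted in limma 3.58.1 (R 4.3.3) with 4 groups and a variance trend on the mean level over the 15846 genes passing the filter. Residual degrees of freedom were 16 and prior ones 5.07. Tests were two-sided and p-values adjusted by Benjamini-Hochberg over all these genes. The pseudocount understates changes of low genes. A gene rose or fell only at an adjusted p under 0.05. Flanks were compared within mouse in 13 mice. The script was tested on simulated data. Nothing in the labels says that the mice were handled separately beyond their ear tags. The members and lists were chosen with earlier results of these data known. Named were the members, the contrast pair, genes by role, up to 4 called genes per further list with the smallest adjusted p, and the 8 genes (4 with group means removed) most correlated with the mean of the standardised members, a log2 mean of 1 or more and no predicted or clone name. Alternatives were other pseudocounts, no filter, 2 other scalings, single tumours with a within-mouse correlation or a flow cell term, and left-out tumours and mice. Some genes of the lists are not reported here.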

Additional observations from a re-analysis of the deposited data

Results flagged for a closer look

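In 48 sets of 5 mice (12 genes in 4 groups), Dixon's test set a mouse far from the rest of its group 3 times, for 2 mice, at a critical value of 0.71, and chance flags about 1 in 20 such sets. Combination mouse 1 had the lowest Irf7 of its group, with a mean log2(FPKM + 0.5) of 0.24 and the nearest mouse at 0.87, a gap of 0.796 of the group's range. The same mouse had the lowest Usp18, at 0.41 with the nearest mouse at 0.66 (0.715 of the range). Its left tumour had the lowest Irf7 and Oasl2 of all 33 tumours (0.331 and 0.961 FPKM), and its right tumour was at 1.17 and 3.40 FPKM. Vehicle mouse 5 had the lowest Cxcl9 of its group, at 2.27 with the nearest mouse at 3.92 (0.854 of the range), and it holds vehicle 5R, the tumour with the lowest depth and the most mitochondrial RNA.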

How the results depend on the processing

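With a flow cell term, the members' median log2 fold change moved from 0.19 to 0.48 for anti-PD-1 against vehicle and from −0.30 to −0.60 for the interaction, by more than the spread between mice of 0.24. The other medians moved by less than that SD of the member mean between mice, but some changed sign. For ESK981 against vehicle, −0.01 became −0.25 when rescaled and 0.20 with the flow cell term. For the combination, −0.10 against ESK981 became 0.07 without ESK981 1R and 2R, and −0.11 against vehicle became 0.05 with the flow cell term. The same term rests on vehicle 5R alone for its link between flow cells, and it reversed Gbp2 against vehicle (0.14 with ESK981, 1.52 with anti-PD-1, 1.59 with the combination), Cxcl9 against vehicle (0.98 with ESK981, 2.13 with the combination), Oasl2 with ESK981 (0.33) and the combination (0.78), Isg15 with ESK981 (1.16), anti-PD-1 (0.998) and the combination (0.81), Ifit1 (−0.068) and Usp18 (0.84) with the combination, the Oasl2 interaction (−0.61), Gbp2 for the combination against anti-PD-1 (0.073) and the interactions of Gbp2 and Cxcl9 (−0.064 and −1.23). Its median over all genes was 0.62, 0.63 and 0.60 in the 3 comparisons with vehicle, and it called 6325, 5061 and 5364 genes there. The cause was not tested. The small Gbp2 difference between the combination and anti-PD-1 was also positive with median-of-ratios scaling (0.053), with the within-mouse correlation (0.034) and without combination 5R, vehicle 5R and anti-PD-1 4R (0.011), and ran from −0.34 to 0.22 when 1 mouse was left out. Without 1 mouse at a time, Cxcl9 ran from −0.14 (without vehicle mouse 5) to 0.35 for anti-PD-1 and from −0.53 to 0.033 (without combination mouse 5) for the combination against vehicle. Leaving out 1 mouse kept the ESK981 fall of Gbp2 past the threshold in 20 of 20 fits and that of Cxcl9 in 16 of 20. Genes called for ESK981 against vehicle numbered 4389 with median-of-ratios scaling, 1390 without ESK981 1R and 2R, 4796 without those 3 tumours, and 1054 to 3782 without 1 mouse, beside 2278 as reported. The 124 genes called for anti-PD-1 against vehicle became 56 without a filter, 368 with median-of-ratios scaling, 1769 without the 3 tumours and 29 to 375 without 1 mouse. For the combination against vehicle, 96 became 54, 1066, 1461 and 62 to 408 in that order, and 1429 when rescaled. The single gene called for ESK981 against anti-PD-1 became 168 with median-of-ratios scaling, 84 rescaled, 256 with the flow cell term and 772 without the 3 tumours, and the 4 of the interaction became 54, 6, 4597 and 725. The 7 further type I genes called for ESK981 against vehicle became 4 without a filter and 14 without the 3 tumours, and the further interferon gamma genes called for ESK981 against anti-PD-1 rose in number from 0 to 21 without them. Members called for ESK981 against vehicle ranged from 0 (within-mouse correlation, 20.7% of all genes called) to 4 (rescaled without ribosomal and mitochondrial RNA, 20.2%). For the combination against vehicle they ranged from 0 (1.05% of all genes called) to 3 (9.02%) under the same settings. No paired analysis was possible because mouse numbers pair nothing across groups. Among the members whose fragments were recovered, depth limits Ifit1, Ifit3, Usp18, Ifi44 and Ifi27l2a most, which had 10 or fewer fragments in their lowest tumour. The fragments of Rsad2 were not recovered.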
